A study of Mus musculus with 8 samples.

Results

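The genes described here encode the nuclear subunits and assembly factors of respiratory complexes II, III, IV and V, together with cytochrome c. They were chosen by symbol: names beginning with Sdh followed by a to d alone, Sdhaf, Uqcr, Uqcc, Cox followed by a digit, or Atp5, and the single genes Cyc1, Cycs, Sco1, Sco2, Surf1 and Bcs1l. Symbols of pseudogenes were left out, and a summed count of at least 80 over the 8 libraries was required. This gave 66 members among 53819 gene symbols in the table, and all 66 were among the 14070 genes with enough counts for testing. Another 5 symbols matched the names but not the count minimum: Cox20b (summed count 6), Cox6b2 (24), Cox6c2 (68.5), Cox7b2 (0) and Cox8c (0).

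RNA was sequenced from the quadriceps of 8 wild-type C57BL/6J mice that were 8 weeks old at the start, 1 library per mouse. In the tumor group (n = 4), mice received 500000 cells of B0092, a head and neck squamous cell carcinoma line, in PBS under the skin of the neck. In the control group (n = 4), mice received PBS alone. Muscle was taken at day 36, and the comparison asks what differs in muscle of mice that lost weight while carrying this tumor. The model rests on 1 tumor line at 1 time point. The libraries held 28436254 to 36139478 counts. Levels are given as CPM, counts scaled to the size of each library. The fit gave a biological coefficient of variation of 30.1%.

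Complex II (succinate dehydrogenase) passes electrons from succinate to ubiquinone, complex III passes them from ubiquinol to cytochrome c, and complex IV (cytochrome c oxidase) passes them from cytochrome c to oxygen. Complex V (ATP synthase) uses the proton gradient built by complexes I, III and IV to make ATP. Each complex needs assembly factors, which insert haem, copper and iron-sulfur centres or hold half-built modules and are not part of the finished enzyme. In muscle, oxidative fibres hold more of these complexes than glycolytic fibres, and several subunits of complex IV have a heart and muscle isoform beside a general one.

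Most subunit genes of complexes II to V were lower in the muscle of tumor-bearing mice. Fewer of the assembly factors with these symbols passed the test, but of 25 other factors of complexes III to V with other symbols, many of them assembly factors, 12 fell. Of the 66 members, 37 fell and 0 rose (edgeR quasi-likelihood test, adjusted p under 0.05 after Benjamini-Hochberg adjustment over all tested genes). Of all 14070 tested genes, 8.73% were called lower and 11% higher, 19.8% in all. The median change of the members was -0.73 on the log2 scale, which is 1.66-fold lower, against 0.0029 for all tested genes. Changes ran from -1.93 for Cox7a1 to 0.53 for Cox19, and 58 of the 66 were negative. In 42 members every tumor library lay below every control library, which was so for 11.5% of all tested genes. In 0 members did every tumor library lie above, against 13.5% of all tested genes. Among the 45 subunit and cytochrome c genes, 34 fell (75.6%, median -0.79). Among the 21 assembly factors, 3 fell (14.3%, median -0.13), and in 7 of the 21 every tumor library lay below every control. Among the 25 other factors, 12 fell (48.0%, median -0.40) and 13 had no overlap. The differences between these lists were not tested.

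The number of members called lower moved with the libraries in the fit: it was 19 without tumor 3, when 3.36% of all tested genes were called lower, and 22 without control 1 (3.35%). It was 30 without control 2 (4.28%) or control 4 (6.82%), 33 without tumor 4 (8.02%), 37 without control 3 (5.95%) or tumor 1 (8.99%), and 43 without tumor 2 (10.1%). With other settings the share of all tested genes called lower was 8.86% with DESeq2 size factors, 9.15% with limma-voom, 11% with upper-quartile factors, 4.35% without a count filter, 12% with a stricter one, 12.5% with the DESeq2 test and 6.52% with a replicate block; 38 to 46 members were called lower with these settings, and 29 with the block.

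**Figure D1:**
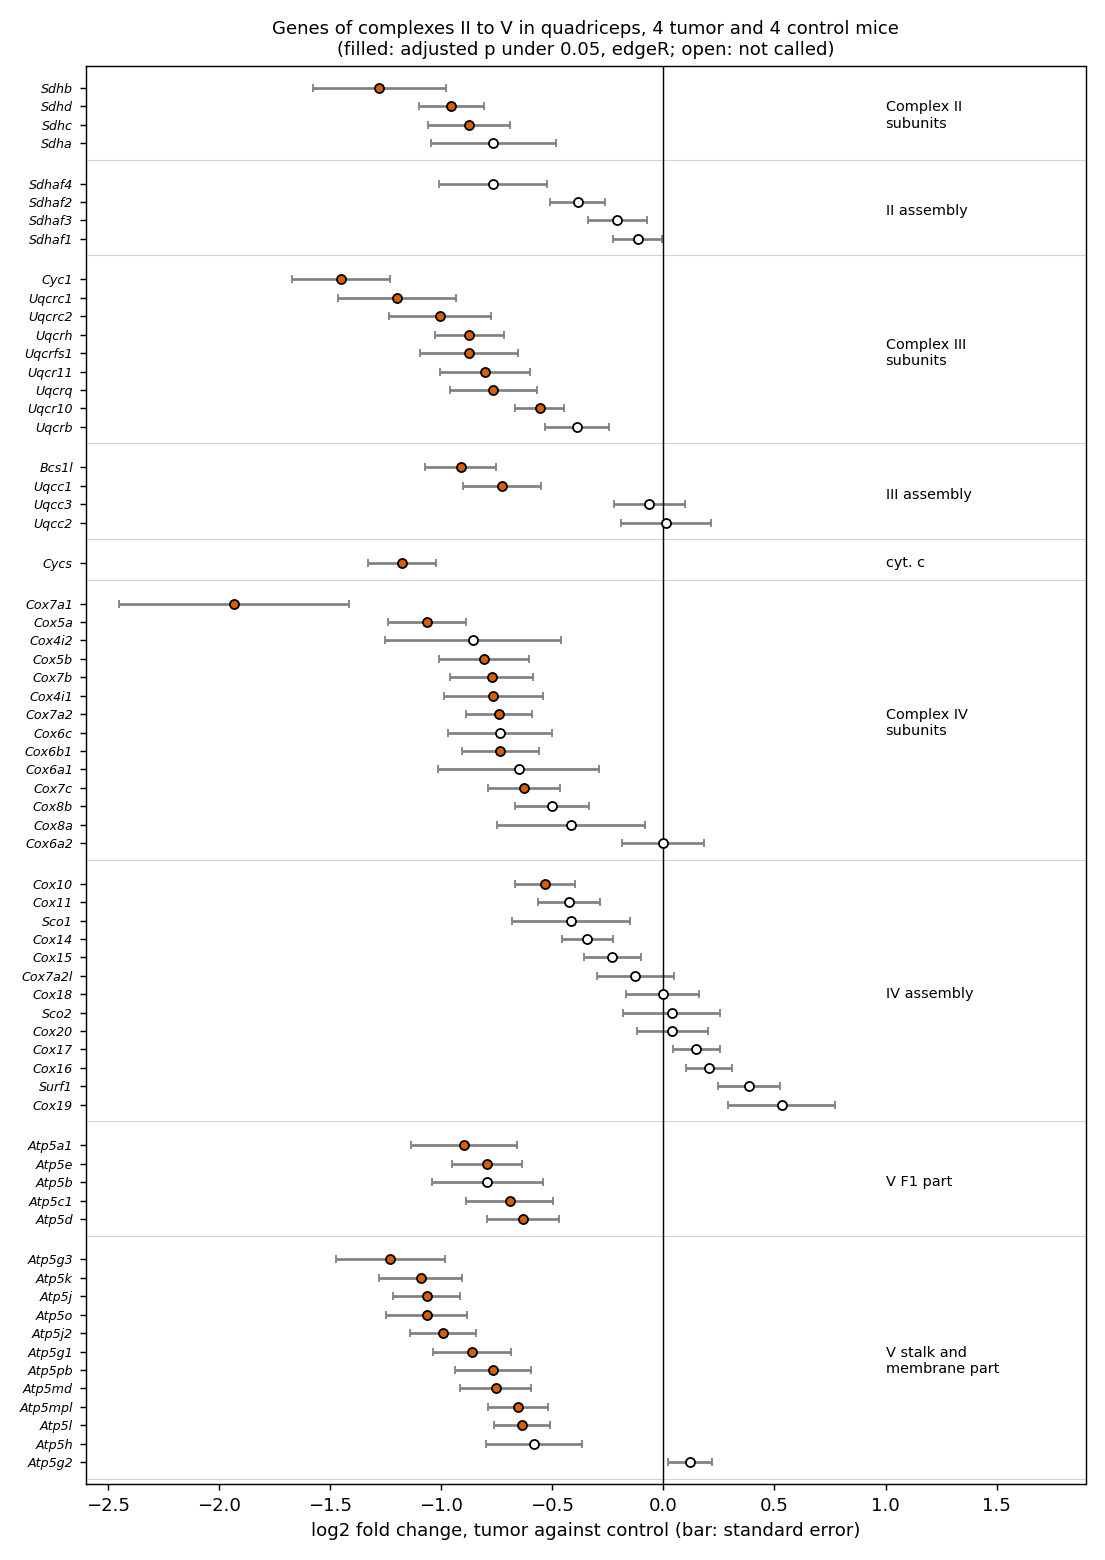
Log2 fold change (tumor minus control) of each of the 66 members on the horizontal axis, arranged by complex and by subunit or assembly factor, with bars of 1 standard error. Filled points passed the test; the subunit genes lie mostly between -0.5 and -1.5, and the complex IV assembly factors lie on both sides of 0, from -0.53 to 0.53.

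The 66 members together took 1.47, 1.26, 1.12 and 1.73% of all counts in control mice 1 to 4 and 0.82, 1.03, 0.76 and 0.93% in tumor mice 1 to 4. All 4 tumor libraries thus lay below the lowest control library. The libraries of a group kept a similar order from gene to gene. Control 4 was the highest control in 52 of the 66 members and control 3 the lowest in 47, while tumor 2 was the highest tumor library in 45 and tumor 3 the lowest in 34. Because muscle was measured in bulk, fewer cells of a type and less RNA per cell cannot be told apart in any of these values.

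**Figure D2:**
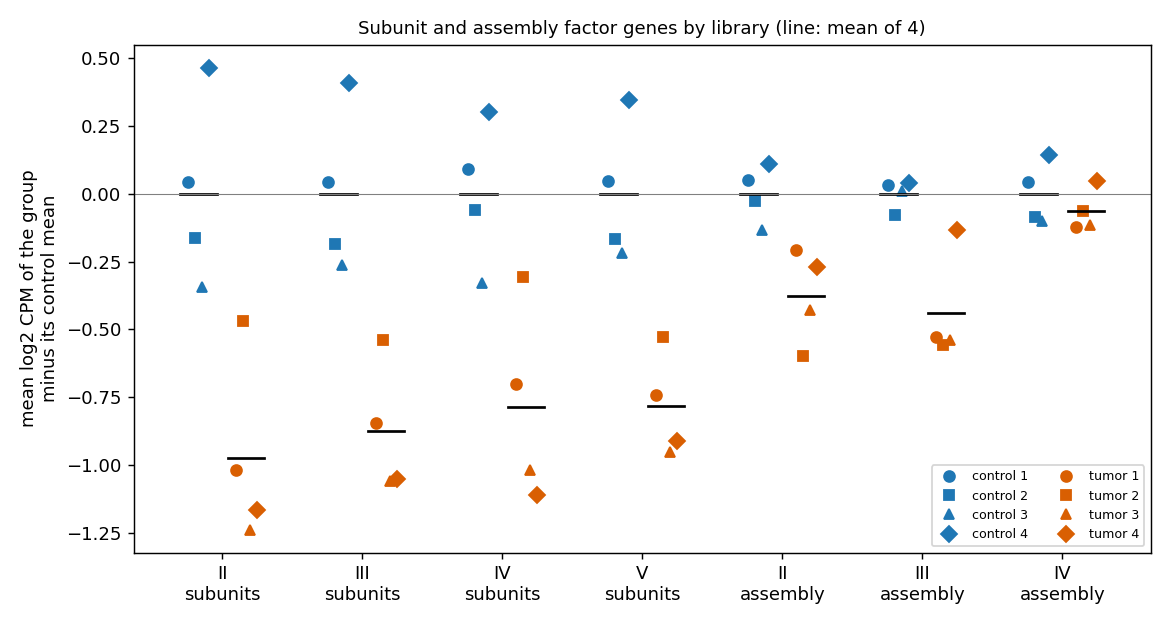
Mean log2 CPM of each role group in each library, relative to the control mean of that group (points, 4 control and 4 tumor mice; horizontal lines, group means). The subunit groups of complexes II, III, IV and V lie lower in tumor libraries, and the complex IV assembly factors run from -0.12 to 0.05 in tumor mice against -0.10 to 0.14 in controls.

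In complex II, 3 of the 4 subunit genes fell (median -0.91). Sdhb carries the iron-sulfur centres and lay at 272, 214, 177 and 414 CPM in control mice 1 to 4 and at 101, 167, 85.2 and 91 CPM in tumor mice 1 to 4. It fell 2.43-fold (log2 change -1.28 ± 0.30, SE; edgeR adjusted p = 0.0185), with no overlap between the groups. Sdhc and Sdhd anchor the enzyme in the inner membrane. Sdhd lay at 131, 119, 108 and 153 CPM in controls and at 65, 78.7, 58.3 and 61.3 CPM in tumor mice, 1.94-fold lower (edgeR adjusted p = 0.00436). For Sdhc the difference was 1.83-fold (edgeR adjusted p = 0.0124), and neither anchor gene had overlapping groups.

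Sdha, the flavoprotein subunit that binds succinate, did not pass the test. It lay at 708, 636, 569 and 993 CPM in controls and at 385, 686, 329 and 309 CPM in tumor mice (log2 change -0.77 ± 0.28, SE; edgeR adjusted p = 0.0838). Tumor 2 was above 2 of the controls and the other tumor libraries were below all of them. Over the 17 alternatives the change ran from -1.12 (without tumor 2, adjusted p = 0.0115) to -0.55, with adjusted p from 0.0084 to 0.209, and 3 alternatives gave a call.

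None of the 4 complex II assembly factors passed the test (0 of 4, median -0.30). All 4 changes were negative, and in Sdhaf2 and Sdhaf3 the groups did not overlap. Sdhaf4 had the lowest value (-0.77 ± 0.24; edgeR adjusted p = 0.0516) and Sdhaf1 the highest (-0.12 ± 0.11; edgeR adjusted p = 0.491). Sdhaf2, which helps attach the flavin to Sdha, stood at -0.39 ± 0.12 (edgeR adjusted p = 0.0528). Both of the smallest p-values lay close to the threshold, and under the DESeq2 test (12.5% of all tested genes lower) 2 of the 4 genes were called lower.

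In complex III, 8 of the 9 subunit genes fell (median -0.87), and in all 9 every tumor library lay below every control. Cyc1, the cytochrome c1 that hands electrons to cytochrome c, lay at 266, 211, 189 and 352 CPM in controls and at 90.5, 118, 74.8 and 88.8 CPM in tumor mice. It fell 2.73-fold (log2 change -1.45 ± 0.22, SE; edgeR adjusted p = 0.00406), the lowest change in complex III. The core subunit Uqcrc1 lay at 542, 434, 395 and 783 CPM in controls and at 224, 336, 196 and 182 CPM in tumor mice, 2.29-fold lower (edgeR adjusted p = 0.0145). The highest tumor library, tumor 2, was still below the lowest control. Uqcrfs1, the Rieske iron-sulfur subunit, lay at 226, 179.8, 185 and 314 CPM in controls and at 113, 167, 107 and 106 CPM in tumor mice, 1.83-fold lower (edgeR adjusted p = 0.0242).

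Of the 5 small supernumerary subunits of complex III, 4 fell, by 1.47-fold to 1.83-fold. Uqcrh fell 1.83-fold, from 216 ± 33.8 to 118 ± 17.7 CPM (mean ± SD, n = 4; edgeR adjusted p = 0.00686), and Uqcr10 fell 1.47-fold, from 134 ± 11.3 to 90.8 ± 5.08 CPM (n = 4; edgeR adjusted p = 0.00981). Uqcrb was the exception: it lay at 189.8, 187, 176 and 252 CPM in controls and at 161, 167, 135 and 151 CPM in tumor mice (log2 change -0.39 ± 0.15; edgeR adjusted p = 0.0879). The differences between these subunits were not tested. The number of complex III subunit genes called lower was 3 of 9 without tumor 3 and 5 of 9 without control 1.

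Complex III assembly factors were split, with 2 of 4 lower (median -0.39). Bcs1l, the ATPase that moves the Rieske subunit across the membrane, lay at 13, 10.2, 11.8 and 13.8 CPM in controls and at 5.6, 6.59, 5.78 and 7.92 CPM in tumor mice. It fell 1.88-fold (log2 change -0.91 ± 0.16, SE; edgeR adjusted p = 0.00641). Uqcc1, which acts early on cytochrome b, fell 1.66-fold (edgeR adjusted p = 0.0212). The other two, Uqcc2 and Uqcc3, had values of 0.011 ± 0.20 and -0.063 ± 0.16 (edgeR adjusted p = 0.975 and 0.815). The count was 1 of 4 without control 1 or tumor 3.

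Cycs, the soluble carrier between complexes III and IV, lay at 354, 310.0, 309 and 437 CPM in controls and at 170.0, 170.1, 139 and 145 CPM in tumor mice, with a gap between the groups and a tumor SD of 16.5 CPM against 60.2 CPM in controls (log2 change -1.18 ± 0.15, SE; edgeR adjusted p = 0.00351).

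In complex IV, 8 of the 14 subunit genes fell (median -0.74), and the changes spread further than in any other subunit group, from -1.93 to -0.0023. Cox5a, a nuclear subunit on the matrix side, lay at 276, 244, 228 and 329.8 CPM in controls and at 131, 162, 106 and 116 CPM in tumor mice. It fell 2.09-fold (log2 change -1.06 ± 0.17, SE; edgeR adjusted p = 0.00513). Cox6b1 fell 1.66-fold (edgeR adjusted p = 0.0195) and Cox7b fell 1.71-fold (edgeR adjusted p = 0.0211). In these 3 genes no tumor library reached the lowest control. Cox4i1, a subunit needed early in assembly, lay at 409.8, 338, 312 and 530.1 CPM in controls and at 225, 320.2, 206 and 184 CPM in tumor mice, 1.7-fold lower (edgeR adjusted p = 0.039). Here tumor 2 was above control 3, and 7 of 17 alternative settings ended the call, with adjusted p up to 0.115. The number of complex IV subunit genes called lower was 2 of 14 without control 1, 2 without tumor 3, 5 without control 2, 5 without control 4 and 11 without tumor 2.

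The tissue isoforms of complex IV had unlike values, from the lowest change among the members to one near 0. No ratio of an isoform pair passed with adjustment, but with 4 libraries per group a pair that was fully separated on its own could not pass. Cox7a1 is the heart and muscle isoform of subunit 7a, and Cox7a2 the general one. Cox7a1 lay at 187, 146, 134 and 272 CPM in controls and at 63.9, 89.2, 27.4 and 13.2 CPM in tumor mice. It fell 3.82-fold (log2 change -1.93 ± 0.52, SE; edgeR adjusted p = 0.0298), the lowest value among the 66 members, with tumor 3 and tumor 4 below tumor 1 and tumor 2. The call was lost without control 1, control 2, control 4 or tumor 3, at adjusted p from 0.0561 to 0.0898. Cox7a2 lay at 89.5, 79.3, 75 and 104 CPM in controls and at 52.4, 63.1, 46.7 and 46.3 CPM in tumor mice, 1.67-fold lower (edgeR adjusted p = 0.0105), and kept its call in all 17 alternatives.

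The log2 ratio of Cox7a1 to Cox7a2 was 1.06, 0.88, 0.84 and 1.38 in control mice 1 to 4 and 0.28, 0.50, -0.77 and -1.81 in tumor mice 1 to 4. All 4 tumor libraries lay below all 4 controls, and the mean ratio was 2.81-fold lower. The exact two-sided permutation test gave p = 0.0286, the smallest that 4 against 4 libraries allow, and 0.114 after Benjamini-Hochberg adjustment over the 4 isoform pairs. As the only pair at that smallest p, it could not pass with adjustment, so the adjusted value does not decide whether the ratio differed. Per kilobase of transcript, Cox7a1 made up 77.4 ± 2.93% of the pair in controls and 54.8 ± 17.6% in tumor mice (mean ± SD, n = 4). The share was 49.6% in tumor 3 and 32.3% in tumor 4, the only libraries in which Cox7a1 did not make up the larger part.

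Cox6a2, the heart and muscle isoform of subunit 6a, lay at 612, 614, 515 and 907 CPM in controls and at 603, 711, 699 and 629.6 CPM in tumor mice. The groups overlapped fully and the log2 change was -0.0023 ± 0.19 (SE; edgeR adjusted p = 0.994). Per kilobase it was the most abundant of the 64 members with a transcript length, at 973 ± 249 CPM per kilobase in controls (n = 4), beside Atp5b at 965 ± 267. Its general counterpart Cox6a1 lay at 19.5, 26.4, 11.3 and 12.8 CPM in controls and at 8.39, 19.8, 7.65 and 8.67 CPM in tumor mice (log2 change -0.65 ± 0.36, SE; edgeR adjusted p = 0.23). Tumor 2 stood above 3 of the controls, and over the 17 alternatives the change ran from -1.22 to -0.38, with adjusted p from 0.0199 to 0.519 and a call in 3 (without tumor 2 it was -1.12, adjusted p = 0.029). The log2 ratio of Cox6a2 to Cox6a1 was 5.29 ± 0.70 in controls and 6.01 ± 0.58 in tumor mice (mean ± SD, n = 4; exact two-sided permutation p = 0.143, adjusted p = 0.286).

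Cox8b, the heart and muscle isoform of subunit 8, lay at 176, 153, 150.4 and 186 CPM in controls and at 141, 125, 119.9 and 83.4 CPM in tumor mice (edgeR adjusted p = 0.062), with all tumor libraries below all controls. Cox8a, its general counterpart, lay at 22.6, 25.1, 13.8 and 22.2 CPM in controls and at 10.6, 28.7, 10.4 and 13 CPM in tumor mice (edgeR adjusted p = 0.406). Tumor 2 had the highest value of all 8 libraries for Cox8a, and over the 17 alternatives the change ran from -0.92 (without tumor 2, adjusted p = 0.0206) to -0.24, with adjusted p up to 0.671 and a call in 2. The log2 ratio of Cox8b to Cox8a was 3.02 ± 0.35 in controls and 3.02 ± 0.75 in tumor mice (n = 4; exact two-sided permutation p = 1). Cox4i1 exceeded its alternative isoform Cox4i2 throughout, at 99.8% of the pair per kilobase in both groups, and their ratio gave p = 0.429 (exact two-sided permutation test, n = 4; adjusted p = 0.571). Cox4i2 itself averaged 0.923 CPM in controls and 0.508 CPM in tumor mice (log2 change -0.86 ± 0.40; edgeR adjusted p = 0.156).

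**Figure D3:**
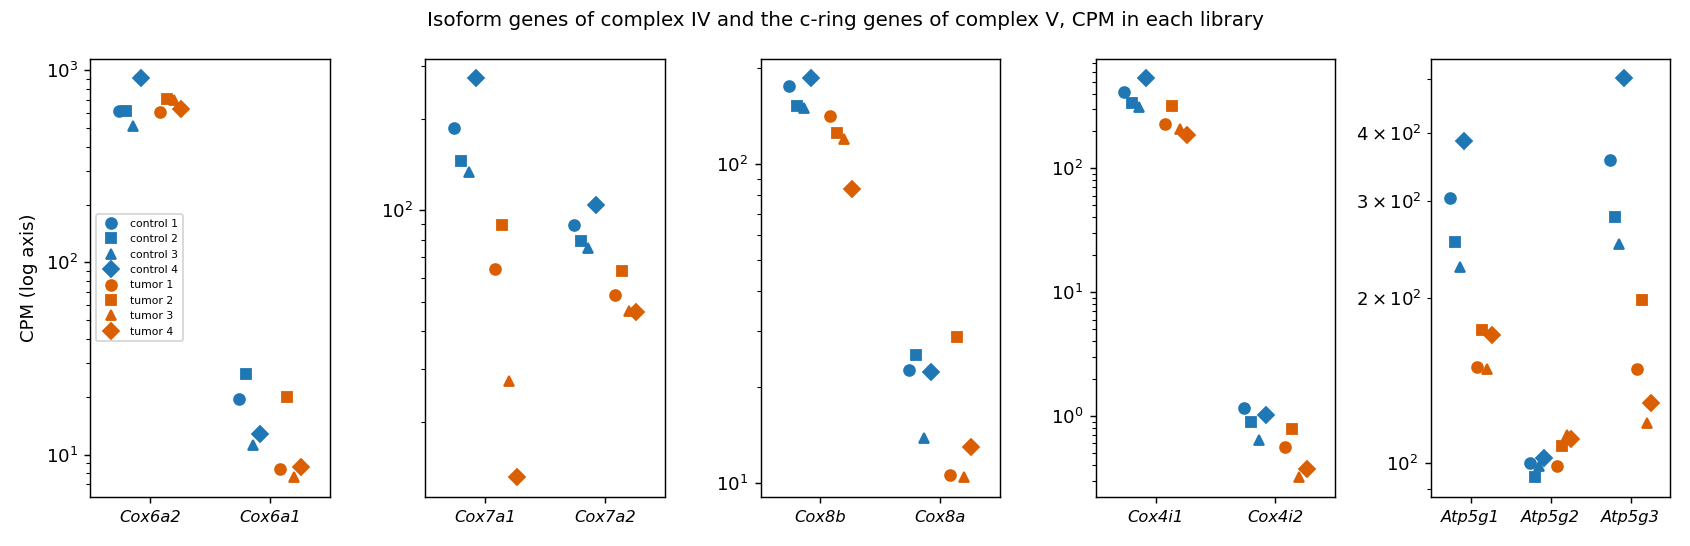
CPM of the genes of the 4 complex IV isoform pairs and of the 3 c-ring genes in each library, on a log axis (points, single mice). Cox7a1 lies from 134 to 272 CPM in controls and from 13.2 to 89.2 CPM in tumor mice. The groups overlap for Cox6a2, Cox6a1, Cox8a, Cox4i1, Cox4i2 and Atp5g2.

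Adipocyte markers were highest in control 2 and tumor 2, as were Cox6a1 and Cox8a within each group. The summed level of the markers was 475, 844, 246 and 16.4 CPM in control mice 1 to 4 and 56.6, 753, 54.5 and 34.7 CPM in tumor mice 1 to 4. The lowest libraries did not match: control 4 and tumor 4 had the lowest sums. Cox6a1 and Cox8a were lowest in control 3 (11.3 and 13.8 CPM) and tumor 3 (7.65 and 10.4 CPM). Of the 8 listed markers (Adipoq, Plin1, Cfd, Lep, Pnpla3, Ucp1, Cidea, Cidec) 7 were tested and 0 were called; Ucp1 was at 0 in controls 3 and 4 and in tumor mice 3 and 4. Their part in the values of these isoforms was not tested.

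Of the 13 complex IV assembly factors with these symbols 1 fell (7.69%, median -0.0032), near the 8.73% of all tested genes called lower. Positive values were seen in 6 of the 13. This covers only part of the factors of complex IV. Of the 25 other factors of complexes III to V, 12 fell and 13 did not pass. Coa5, Coa7, Cmc2, Tmem177, Higd1a, Higd2a and Taco1, which act in complex IV assembly or biogenesis, fell. Their log2 changes ran from -1.45 for Taco1 (edgeR adjusted p = 0.00233) to -0.33 for Coa5 (edgeR adjusted p = 0.0479). In the same list Coa3, Coa4, Coa6, Coa8, Pet100, Pet117, Cmc1, Smim20, Lrpprc and Slirp did not pass. Their values ran from -0.42 for Pet100 to 0.56 for Coa4. Cox10, which starts the synthesis of haem A, lay at 41.3, 37.6, 33.8 and 49.3 CPM in controls and at 29.6, 28.9, 25.1 and 28.4 CPM in tumor mice, 1.45-fold lower (log2 change -0.53 ± 0.13, SE; edgeR adjusted p = 0.0242). Its partner in haem A synthesis, Cox15, did not pass (log2 change -0.23 ± 0.13; edgeR adjusted p = 0.233). None of the 5 copper delivery genes (Cox11, Cox17, Cox19, Sco1, Sco2) passed, and their values ran from -0.42 ± 0.14 for Cox11 (edgeR adjusted p = 0.0555) to 0.53 ± 0.24 for Cox19 (edgeR adjusted p = 0.149). Cox19 lay at 16, 18, 14.3 and 17.8 CPM in controls and at 16.5, 18.4, 23 and 37.6 CPM in tumor mice, with overlapping groups. Surf1, an assembly factor mutated in Leigh syndrome, stood at 15.6 ± 1.51 CPM in controls and 20.4 ± 2.95 CPM in tumor mice (n = 4; edgeR adjusted p = 0.076). Cox7a2l, related to Cox7a and involved in joining complexes III and IV, had a value of -0.13 ± 0.17 (edgeR adjusted p = 0.65). The count was 0 of 13 without control 1, control 2 or tumor 3, 2 without tumor 1, and 3 with upper-quartile factors, the stricter count filter or the DESeq2 test.

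In complex V, 4 of the 5 genes of the catalytic head and central stalk fell (median -0.79), and 10 of the 12 genes of the peripheral stalk, c-ring and membrane part fell (median -0.81). Atp5a1 and Atp5b encode the alpha and beta subunits of the head. Atp5a1 lay at 1643, 1424, 1255 and 2434 CPM in controls and at 855, 1167, 771 and 835 CPM in tumor mice, 1.86-fold lower (edgeR adjusted p = 0.0282). Atp5b lay at 1819, 1574, 1426 and 2577 CPM in controls and at 961, 1518, 868 and 924 CPM in tumor mice, where tumor 2 was above control 3 (log2 change -0.79 ± 0.25, SE; edgeR adjusted p = 0.0513). Atp5e, the epsilon subunit of the central stalk, fell 1.73-fold (edgeR adjusted p = 0.0101), Atp5d fell 1.55-fold (edgeR adjusted p = 0.0256) and Atp5c1 fell 1.61-fold (edgeR adjusted p = 0.0356). The count for the head and central stalk was 1 of 5 without control 1, control 2 or tumor 3, and 2 of 5 without control 4, tumor 1 or tumor 4.

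The peripheral stalk holds the head still while the ring turns. Its gene Atp5j lay at 213, 182, 175 and 239.9 CPM in controls and at 105, 109.8, 81.2 and 90.7 CPM in tumor mice, with a gap between the groups. Atp5o, also of the peripheral stalk, fell 2.09-fold (edgeR adjusted p = 0.00611). Of the membrane part, Atp5k fell 2.13-fold (edgeR adjusted p = 0.0058) and Atp5j2 fell 1.99-fold (edgeR adjusted p = 0.00399). Atp5h of the peripheral stalk did not pass (-0.58 ± 0.22; edgeR adjusted p = 0.088). The count for the stalk and membrane genes ranged from 9 to 11 of 12 when each library was left out in turn. Exons of Atp5j overlap the opposite-strand gene Gabpa. Those of Atp5o overlap the same-strand gene Donson and the opposite-strand gene D430001F17Rik. The strand setting of the counting is not given in the sources used here. Part of these counts could thus belong to a neighbour, in the case of Donson whatever that setting was.

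The c-ring of complex V is built from 1 protein encoded by 3 genes, which differ in the targeting peptide that is cut off on import. Of these genes 2 fell and Atp5g2 did not pass the test; the difference between them was not tested. Atp5g1 lay at 304, 253, 228 and 386 CPM in controls and at 149.7, 175, 148 and 171 CPM in tumor mice, 1.82-fold lower (log2 change -0.86 ± 0.17, SE; edgeR adjusted p = 0.0108). Atp5g3 lay at 357, 281, 251 and 502 CPM in controls and at 148, 199, 118 and 129 CPM in tumor mice, 2.34-fold lower (log2 change -1.23 ± 0.25, SE; edgeR adjusted p = 0.0103). In both genes every tumor library was below every control. Atp5g2 lay at 100.05, 94.4, 99 and 102 CPM in controls and at 98.8, 108, 113 and 111 CPM in tumor mice, with overlapping groups (log2 change 0.12 ± 0.10, SE; edgeR adjusted p = 0.425), and it was the only complex V member with a positive value. Its SD in controls was 3.28 CPM, against 69.99 CPM for Atp5g1 and 112 CPM for Atp5g3. Of the counts of the 3 genes, Atp5g2 gave 13.9 ± 2.89% in controls and 26.0 ± 3.10% in tumor mice, Atp5g3 gave 46.4 ± 3.16% and 35.3 ± 4.91%, and Atp5g1 gave 39.6 ± 0.54% and 38.7 ± 2.27% (mean ± SD, n = 4). These shares are of counts and not per length, so they compare libraries and not genes. The estimated counts of Atp5g1 and Atp5g2 were not whole in any library, unlike those of Atp5g3, so some of their reads were divided among similar genes. The effect of this on the shares was not tested.

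The promoters of the c-ring genes, which encode 1 protein, and of the Cox7a pair, isoforms of 1 subunit, are shown because the log2 changes within each set were unlike. The difference among the c-ring genes was not tested, and the Cox7a ratio did not pass with adjustment. The letters are the 120 bases before the first start listed for each gene, 5′ to 3′ on the gene's strand, from RefSeq on build GRCm38.p6, which is older than the GRCm39 build of the count table. Capitals mark matches to the motifs of NRF1 (GCGCA and GCGC with 1 base between them), estrogen-related receptors (ERR, AAGGTCA), ETS factors such as GABP (CCGGAAG) and YY1 (AAGATGGC), each searched on both strands. The Atp5g1 window is chr11:96075632-96075751 (minus strand), that of Atp5g2 is chr15:102671048-102671167 (minus strand), that of Atp5g3 is chr2:73911327-73911446 (minus strand), that of Cox7a1 is chr7:30184051-30184170 (plus strand) and that of Cox7a2 is chr9:79759854-79759973 (minus strand).
Atp5g1: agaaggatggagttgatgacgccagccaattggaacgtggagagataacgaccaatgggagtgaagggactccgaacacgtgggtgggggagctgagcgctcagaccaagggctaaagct
Atp5g2: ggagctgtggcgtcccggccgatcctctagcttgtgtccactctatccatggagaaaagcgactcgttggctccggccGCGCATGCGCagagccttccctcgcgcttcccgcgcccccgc
Atp5g3: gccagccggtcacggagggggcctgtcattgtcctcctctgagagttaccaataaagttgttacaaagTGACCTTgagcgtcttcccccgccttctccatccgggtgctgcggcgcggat
Cox7a1: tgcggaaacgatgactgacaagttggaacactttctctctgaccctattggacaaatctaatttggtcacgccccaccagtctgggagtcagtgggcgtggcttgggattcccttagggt
Cox7a2: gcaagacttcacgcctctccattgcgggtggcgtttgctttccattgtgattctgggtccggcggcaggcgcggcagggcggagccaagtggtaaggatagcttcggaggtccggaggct
Atp5g2 held an NRF1 motif whose first base is at -42, Atp5g3 held an ERR motif on the opposite strand whose first base is at -52, and the windows of Atp5g1, Cox7a1 and Cox7a2 held none of the 4 letter strings. Atp5g3 also held an NRF1 motif after the start, at +13, outside the letters shown. A match describes the letters and is no evidence of binding.

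Over the full 300-base promoters (250 bases before to 50 after the start), 53 of the 66 members matched the RefSeq table. Sdhc, Cyc1, Uqcrc2, Uqcrq, Uqcrb, Cox17, Cox18, Cox4i1, Cox6c, Cox4i2, Cox6a2, Atp5a1 and Atp5mpl had no entry. The ETS motif was in 23 of the 53 (43.4%), against 9.12% of all 27025 promoters. That background also holds genes outside the 14070 tested here, whereas all members were tested, so the shares do not compare members with expressed genes alone. The NRF1 motif was in 12 (22.6%, against 4.78%), the ERR motif in 6 (11.3%, against 4.66%) and the YY1 motif in 5 (9.43%, against 2.88%). Between the 30 matched members called lower and the 23 not called, the ETS motif was in 36.7 and 52.2%, the NRF1 motif in 16.7 and 30.4%, the ERR motif in 16.7 and 4.35%, and the YY1 motif in 10.0 and 8.70%. The differences between these shares were not tested.

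Subunits and assembly factors were compared within each library by the difference of their mean log2 CPM. Subunit and cytochrome c genes exceeded assembly factors by 3.31, 3.23, 3.11 and 3.53 in control mice 1 to 4 and by 2.73, 3.09, 2.53 and 2.31 in tumor mice 1 to 4. Every tumor library lay below every control, and the mean difference was 0.63 smaller in tumor mice (-0.63 on the log2 scale). Within complex IV the same gap was -0.72 relative to controls, with 4 of 4 tumor libraries below all controls. It was -0.60 in complex II and -0.43 in complex III, with 3 of 4 tumor libraries below all controls in each. Between complexes, relative to complex V, the shift in tumor mice was -0.0023 for complex IV, with 1 of 4 tumor libraries below and 1 above all controls, -0.09 for complex III and -0.19 for complex II, with 3 of 4 tumor libraries below all controls in each. These are descriptions of lists and carry no test.

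Subunits of complexes III, IV and V that mitochondrial DNA encodes had values in the same range (6 genes, median -0.78), but only mt-Co3 passed, from 8557 ± 1650 to 4414 ± 1551 CPM (n = 4; edgeR adjusted p = 0.0425). For mt-Co1 the log2 change was -0.93 ± 0.38 (edgeR adjusted p = 0.115). The libraries were made with an mRNA kit, and its capture of mitochondrial transcripts was not tested.

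Other factors of complexes III to V whose names the rule did not take included 12 lower and 0 higher of 25, as given above. Taco1, an activator of mt-Co1 translation, lay at 36.7, 34.5, 33.6 and 43.6 CPM in controls and at 13.9, 15.5, 10.0 and 15 CPM in tumor mice. It fell 2.73-fold (log2 change -1.45 ± 0.16, SE; edgeR adjusted p = 0.00233). Cmc2, a small protein needed for complex IV, fell 1.66-fold (edgeR adjusted p = 0.00654), and Ndufa4, now counted as a complex IV subunit, fell 1.65-fold (edgeR adjusted p = 0.008).

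Of 15 regulators of respiratory genes, 3 fell and 2 rose (median -0.19), against 8.73% of all tested genes called lower and 11% called higher. Esrra, the estrogen-related receptor alpha that binds many promoters of oxidative genes, lay at 98.7, 82.4, 77.6 and 126 CPM in controls and at 45.4, 45.2, 36.1 and 35.5 CPM in tumor mice. It fell 2.37-fold (log2 change -1.25 ± 0.17, SE; edgeR adjusted p = 0.00358). Perm1, a muscle regulator that acts with the PGC-1 coactivators and estrogen-related receptors, lay at 217, 148, 92.3 and 339 CPM in controls and at 35, 87.7, 26.7 and 24.4 CPM in tumor mice, 4.57-fold lower (edgeR adjusted p = 0.0164, and 0.0582 without tumor 3). In both genes the groups did not overlap. Ppargc1b, which encodes PGC-1 beta, fell 2.09-fold (edgeR adjusted p = 0.0293). Pprc1, a coactivator related to PGC-1, rose 1.54-fold (edgeR adjusted p = 0.00896), and Polrmt rose 1.44-fold (edgeR adjusted p = 0.0205). Ppargc1a, which encodes PGC-1 alpha, had a log2 change of -0.55 ± 0.26 (edgeR adjusted p = 0.171), and of Nrf1, Gabpa and Tfam none passed (edgeR adjusted p = 0.0586, 0.53 and 0.222). For Ppargc1a the adjusted p ran from 0.0148 (without control 4 and tumor 2) to 0.422 (without control 4) over the alternatives, and it was 0.0419 without tumor 2.

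**Figure D4:**
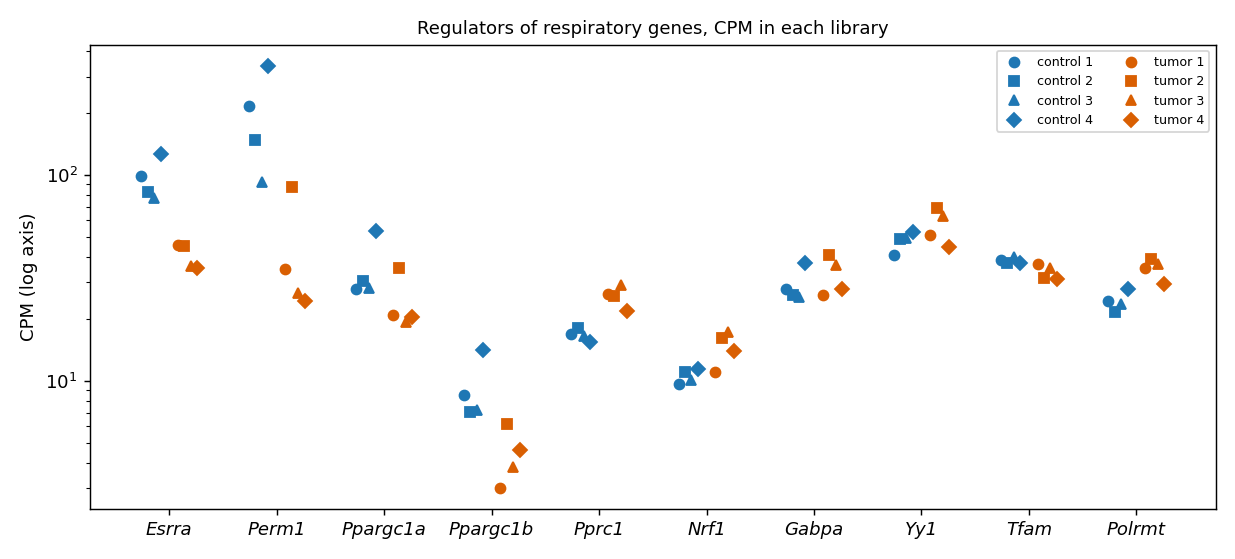
CPM of regulators of respiratory genes in each library on a log axis (points, single mice). Esrra and Perm1 have no overlap between the groups, and Nrf1, Gabpa and Ppargc1a did not pass the test.

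Markers of fibre type differed among libraries of the same group. The summed level of 9 slow and type 2A fibre genes was 1755, 607, 115 and 11950 CPM in control mice 1 to 4 and 99.7, 1222, 167 and 205 CPM in tumor mice 1 to 4. Control 4, the highest control for most members, was the highest here, as was tumor 2 in its group. Of the 9 genes 6 were called lower, and in 0 of them were the groups without overlap. With the log2 ratio of Myh4 (type 2B myosin) to the other adult myosins as a covariate, 39 members were called lower and 1, Surf1, higher (0.46, adjusted p = 0.0359), against 9.82 and 11.7% of all tested genes, and the median change of the members was -0.57. Without control 4 and tumor 2 together, 43 members were called lower (10.1% of all tested genes), among them all 37 of the full comparison, and the median change was -0.72. These libraries were also the highest of their groups in most members, and leaving out tumor 2 alone gave 43 as well. The part of fibre type in the members' values was not tested.

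The summed level of 5 endothelial markers was 121 to 184 CPM in controls and 60.9 to 107 CPM in tumor mice. Of the 5, 3 fell (Kdr, Tek and Emcn), against 8.73% of all tested genes. Cdh5 did not pass (edgeR adjusted p = 0.0542). Pecam1 did not pass either (log2 change -0.19 ± 0.20, SE; edgeR adjusted p = 0.547), and its groups overlapped. The part of these 5 markers in the members' values was not tested. Of 5 macrophage markers 0 were called. Of 7 markers of squamous carcinoma, Krt5, Krt14, Krt6a and Dsg3 were at 0 in all 8 libraries and Krt16 was at 0 in all but control 4. Trp63 rose, from 6.27 to 9.40 CPM in controls to 15.7 to 36.2 CPM in tumor mice. The muscle genes Ckm, Mylpf, Tnnt3, Tnni2, Ttn and Myh4 were abundant in all libraries and not called, and Acta1 fell.

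**Figure D5:**
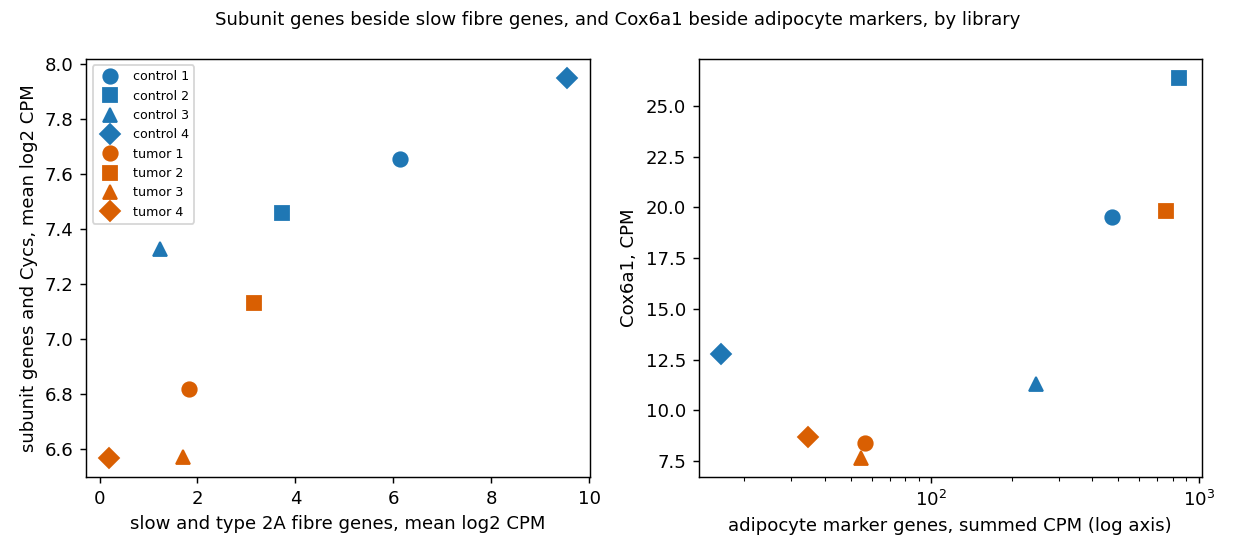
Left, mean log2 CPM of subunit genes and Cycs against that of slow and type 2A fibre genes (points, single mice). Right, CPM of Cox6a1 against the summed CPM of adipocyte markers on a log axis. Slow and type 2A fibre genes are highest in control 4, and adipocyte genes are highest in control 2 and tumor 2 within their groups.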

How the data were processed

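Estimated counts, deposited by the authors in 1 table, covered 53819 symbols and 8 quadriceps libraries; 9.00% of the values were not whole. Per the submitters' processing notes, the tools named are STAR 2.7.9a, Salmon 1.10.1, Trim Galore 0.6.7 and cutadapt 3.4, with build GRCm39 and no role given for each tool. How strand was set in counting, and which annotation was used, is not given in the sources used here. Per the labels' protocols, RNA was isolated with an RNeasy kit and libraries were made with a Universal Plus mRNA-Seq kit. Estimated counts divide reads among similar genes: 22 of the 66 members had values that were not whole, 18 of 64 found in the GENCODE M21 annotation shared exon bases with another gene, and 11 pseudogene symbols of these families (summed count 2019) were left out. Groups were taken from the sample titles.

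The deposited counts were rounded and tested in edgeR 4.0.16 (R 4.3.3, limma 3.58.1): filterByExpr with a minimum count of 10, TMM factors, glmQLFit and glmQLFTest without covariates, and Benjamini-Hochberg adjustment over 14070 genes at 0.05. Printed CPM values use TMM-scaled library sizes. Isoform ratios were compared by exact permutation of the libraries. The named genes were up to 4 called members of each role group with the smallest p, the lowest and highest change of each group, the isoform pairs, Sdha, Cyc1, Cycs, Uqcrc1, Uqcrfs1, Cox4i1, Atp5a1, Atp5b, the c-ring genes, the leading genes of each list, and 6 regulators; a few others are named with them. The members and lists were chosen with earlier results of these data known. Alternatives used DESeq2 1.42.0 size factors and test, limma-voom, upper-quartile factors, other count filters, a replicate block, a fibre-type covariate and libraries left out. P-values measure the spread between mice.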

Additional observations from a re-analysis of the deposited data

Results flagged for a closer look

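Within groups of 4 libraries, a single library stood apart in 3 of 132 checks of a member in a group (a wide gap to the nearest library relative to the group's range, by Dixon's criterion, which chance meets in about 1 of 20 groups). Cox20 was at 12.8 CPM in tumor 4, with a gap of 0.831 of the range. Cox6a1 was at 19.8 CPM in tumor 2, with a gap of 0.871. Uqcrfs1 was at 167 CPM in tumor 2, with a gap of 0.853.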

How the results depend on the processing

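Of the 37 members called lower, 19 kept the call under all 17 alternatives and 0 changed sign; of the 29 not called, 13 were called under at least 1. The number called lower was 38 with DESeq2 size factors or no count filter, 40 with limma-voom, 44 with a stricter count filter, 45 with upper-quartile factors and 46 with the DESeq2 test. With upper-quartile factors 43.0% of all calls were higher, against 55.8%, and the median of all tested genes moved to -0.07. With each library left out in turn, 19 (without tumor 3) to 43 (without tumor 2) members were called lower, 22 without control 1, against 3.36, 10.1 and 3.35% of all tested genes. The same range was 2 to 4 for complex II subunits, 0 to 1 for complex II assembly, 3 to 8 for complex III subunits, 1 to 2 for complex III assembly, 2 to 11 for complex IV subunits, 0 to 2 for complex IV assembly, 1 to 5 for the complex V head and 9 to 11 for the complex V stalk and membrane. Complex II assembly factors called lower were 1 with DESeq2 size factors or limma-voom and 2 with upper-quartile factors, the stricter filter or the DESeq2 test. Complex IV assembly factors called lower were 3 with each of those last 3 settings and 2 with the fibre-type covariate, under which 1 member was called higher. The cause of these shifts was not tested.

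Whether the replicate numbers pair the mice cannot be told from these values. Libraries of the same number correlated at 0.02 to 0.20 after removal of group means, and those of unlike number at -0.31 to 0.15. Of 8 libraries, 4 correlated best with their own number. With a replicate block 29 members were called lower (28 of them shared with the 37), 5 in complex III subunits and 1 in the complex V head. For isoform ratios, 4 pairs cannot give a p below 0.125, and 3 against 3 libraries cannot go below 0.1.

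The log2 ratio difference of Cox7a1 to Cox7a2 ran from -1.81 to -1.04 with libraries left out, that of Cox6a2 to Cox6a1 from 0.46 to 1.00, that of Cox8b to Cox8a from -0.24 to 0.30, and that of Cox4i1 to Cox4i2 from 0.0072 to 0.24. Without control 4 and tumor 2 that of Cox8b to Cox8a was 0.31, and with 0.5 CPM added that of Cox4i1 to Cox4i2 was -0.26. Members near 0 changed sign: Cox18 (-0.065 to 0.047 with libraries left out, 0.086 without control 4 and tumor 2, 5.1e-05 with the covariate), Cox20 (-0.13 to 0.10; -0.035 with upper-quartile factors), Cox6a2 (-0.10 to 0.19; 0.022 with limma-voom, 0.14 without control 4 and tumor 2, 0.028 with the block, 0.15 with the covariate), Sco2 (-0.084 to 0.18; -0.040 with upper-quartile factors), Uqcc2 (-0.13 to 0.15; -0.063 with upper-quartile factors, -0.00030 without a filter, -0.0096 with the stricter filter, -0.023 with limma-voom, -0.022 with the block, -0.15 with the covariate) and Uqcc3 (0.0063 without control 4 and tumor 2).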
